A study of Mus musculus with 12 samples.

Results

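The hormone genes of the pituitary gland and of its pars tuberalis were followed in 12 RNA-seq libraries of the arcuate nucleus (ARC), a nucleus at the base of the mouse hypothalamus. The members were listed by gene name: Cga and Tshb as pars tuberalis genes, Prl, Gh and Lhb as anterior lobe genes, together with Fshb, Pou1f1 and Pitx1. Of these 8 genes, 6 had values among the 16640 genes measured, and all 6 passed the filter on low values (a signal of at least 1 in at least 2 libraries). Gh and Pou1f1 were not analysed here, so the anterior lobe is represented by Prl, Lhb and Fshb.

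All mice were females of 27 weeks that carried Esr1fl/fl, a floxed gene for oestrogen receptor-α, on a background mixed from CD-1 and 129P2. Controls were Esr1fl/fl without Cre, and mutants (Esr1Nkx2-1Cre) carried a Cre recombinase under Nkx2-1, a gene of the ventral forebrain that is also expressed in the thyroid and lung, so deletion is not limited to the ARC. The chow groups held 3 control and 4 mutant libraries, and the groups given high-fat food (HFD) over 17 weeks held 2 control libraries and 3 labelled mutant. The ARC was microdissected by reference to the optic chiasm, and nothing in the labels says how much of the median eminence or of the pituitary stalk was kept. Replicate numbers here only name the libraries. The labels do not say whether the libraries came from separate animals, so p-values measure the spread between these samples.

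The anterior lobe of the pituitary holds lactotrophs, which make prolactin, somatotrophs, which make growth hormone, and gonadotrophs, which make luteinising and follicle-stimulating hormone. The pars tuberalis is a thin sheet of pituitary cells wrapped around the stalk and the underside of the median eminence, directly below the ARC. Its thyrotrophs make thyroid-stimulating hormone (TSH) under the control of melatonin, and that TSH acts on tanycytes, the glial cells that line the floor of the third ventricle. Luteinising hormone, follicle-stimulating hormone and TSH are each a pair of chains. The alpha chain, encoded by Cga, is common to them, and the beta chain, encoded by Lhb, Fshb or Tshb, gives each hormone its identity. Pitx1 encodes a homeodomain factor present in all pituitary lineages, whereas Pou1f1 encodes a factor of the lactotroph, somatotroph and anterior lobe thyrotroph lineages. Cga is thus also a product of gonadotrophs, and Cga and Tshb of anterior lobe thyrotrophs, so neither gene marks the pars tuberalis alone.

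Values are the deposited signal, read here as an abundance per transcript length, the measure Kallisto reports, though its scaling was not stated. Levels of different genes are set side by side on that reading. The sequencing depth is unknown, so no counting error can be given and a value of 0 is described only as listed at 0. The column totals ran from 922172 to 1254999 and the genes listed at 0 from 201 to 1768 per library. Esr1, the deleted gene, ranged from 7.29 to 19.8 in control chow and from 1.65 to 6.05 in mutant chow, but from 15.3 to 22.4 in control HFD and from 10.7 to 16.6 in the libraries labelled mutant HFD. The last group thus did not show the low Esr1 of mutant chow that its label implies, and directions drawn from it carry that limit.

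The promoters of the pars tuberalis pair and of the anterior lobe pair are shown because 1 of these genes, Prl, was listed at 0 in 7 of 12 libraries. Cga, Tshb and Lhb were above 0 in all 12. They are RefSeq sequences on GRCm38.p6, from 250 bases before to 50 bases after the annotated start, written 5′ to 3′ on the coding strand, and a RefSeq promoter was matched for 5 of the 6 genes (not for Pitx1). Capitals mark TATAAA on either strand and, in Prl, ATGNATA on either strand, the core letters of a site for the POU1F1 protein.
Cga, chr4:34893529-34893828, plus strand: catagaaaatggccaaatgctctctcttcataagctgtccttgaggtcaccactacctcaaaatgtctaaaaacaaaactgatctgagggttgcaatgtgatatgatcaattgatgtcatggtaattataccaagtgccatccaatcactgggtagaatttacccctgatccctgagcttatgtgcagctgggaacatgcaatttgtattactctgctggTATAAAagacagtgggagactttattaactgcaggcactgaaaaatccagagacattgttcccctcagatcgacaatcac
Tshb, chr3:102782665-102782964, minus strand: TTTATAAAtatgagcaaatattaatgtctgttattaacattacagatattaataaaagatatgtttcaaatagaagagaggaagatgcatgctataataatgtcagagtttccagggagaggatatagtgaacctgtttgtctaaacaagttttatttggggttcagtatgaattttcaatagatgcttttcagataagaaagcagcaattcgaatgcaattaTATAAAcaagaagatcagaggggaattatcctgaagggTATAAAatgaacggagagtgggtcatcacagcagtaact
Lhb, chr7:45420696-45420995, plus strand: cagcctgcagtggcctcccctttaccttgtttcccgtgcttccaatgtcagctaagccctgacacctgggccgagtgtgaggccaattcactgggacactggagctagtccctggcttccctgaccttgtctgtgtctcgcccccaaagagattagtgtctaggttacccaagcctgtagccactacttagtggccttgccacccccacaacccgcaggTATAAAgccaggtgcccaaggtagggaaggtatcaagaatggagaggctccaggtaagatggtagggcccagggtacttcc
Prl, chr13:27057320-27057619, plus strand: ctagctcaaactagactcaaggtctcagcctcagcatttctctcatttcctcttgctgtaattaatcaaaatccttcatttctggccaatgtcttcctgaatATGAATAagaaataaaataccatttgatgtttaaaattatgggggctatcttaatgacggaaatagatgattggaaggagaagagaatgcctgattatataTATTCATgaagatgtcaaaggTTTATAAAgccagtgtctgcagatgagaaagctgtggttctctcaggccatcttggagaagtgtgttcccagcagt

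TATAAA began 30 bases before the start in Cga, 27 in Tshb, 31 in Lhb, 24 in Prl and 30 in Fshb, with further matches at -250, -248 and 12 in Tshb and -26 in Prl, and 13.6% of 32851 RefSeq promoters of that length hold it. In this window ATGNATA was found in the Prl promoter alone among the 5, where its first bases lie at -148 and -47 from the start, against 8.84% of all promoters. Neither TAATCC, the core of a site for PITX proteins (7.06% of all promoters), nor the D-box TTANGTAA (2.32%) was found in any of the 5. These matches describe letters in a short window and say nothing about which factors bind there.

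Cga (ENSMUSG00000028298, a protein-coding gene on the plus strand of chromosome 4, 34893779 to 34907370 in GRCm38) was the most abundant member in every library. The control chow libraries gave signals of 407, 4802 and 1199, taken here and for the other genes from replicate 1 upwards, and mutant chow gave 875, 813, 1586 and 1326. Control HFD gave 82.0 and 1018, while the mutant-labelled HFD libraries gave 667, 1428 and 957. By signal it ranked between 26 and 2010 among the 16640 genes of a library, and it made up between 0.00888% and 0.383% of a column total. Control chow replicate 2 was highest and control HFD replicate 1 lowest, with 58.6 times between them, and both of these are control libraries.

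Tshb (ENSMUSG00000027857, chromosome 3, 102775465 to 102782718, minus strand, protein coding), the beta chain that makes TSH, was also detected in all 12 libraries. It was 91.5, 655 and 568 in control chow, 198, 194, 307 and 246 in mutant chow, 22.5 and 311 in control HFD, and 156, 264 and 340 in the libraries labelled mutant HFD. The highest and lowest were again control chow replicate 2 and control HFD replicate 1, 29.1 times apart. Cga exceeded Tshb in every library, by 2.11 to 7.33 times with a median of 4.36, so the ratio of the pair varied far less (3.47 times) than either gene. This was not particular to the pair, since the ratio of Tshb to Pitx1 varied 3.06 times and that of Cga to Lhb 4.15 times. Tshb lies within Tspan2 on the opposite strand. Strand use was not stated, and whether reads were shared between them was not tested. Tspan2 ranged from 22.6 to 64.1 and was 59.9 in the library where Tshb was lowest.

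Pitx1 (ENSMUSG00000021506, chromosome 13, 55825051 to 55836192, minus strand, protein coding) followed the same order at its ends. It was 26.6, 102 and 97.5 in control chow, 52.1, 46.2, 81.8 and 51.7 in mutant chow, 7.38 and 93.6 in control HFD, and 40.3, 40.4 and 36.5 in the libraries labelled mutant HFD. The last group was tight, whereas the pair of control HFD libraries spanned nearly the whole range.

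Lhb (ENSMUSG00000100916, chromosome 7, 45420820 to 45421897, plus strand, protein coding), the beta chain of luteinising hormone, was present throughout. It was 27.6, 428 and 66.2 in control chow, 59.6, 52.3, 108 and 35.4 in mutant chow, 8.76 and 37.4 in control HFD, and 38.0, 158 and 77.0 in the libraries labelled mutant HFD. In control chow replicate 2 it reached 428, against at most 158 elsewhere. The 3′ end of Lhb overlaps Ruvbl2 on the opposite strand, and Ruvbl2 ranged from 27.4 to 50.1. Ruvbl2 was above Lhb in the library where Lhb was lowest (36.8 against 8.76).

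Fshb (ENSMUSG00000027120, chromosome 2, 107056140 to 107059656, minus strand, protein coding), the beta chain of follicle-stimulating hormone, was low. It was 3.27, 20.6 and 6.81 in control chow, 12.7, 4.46, 9.06 and 1.29 in mutant chow, 0.197 and 8.53 in control HFD, and 9.98, 1.56 and 5.44 in the libraries labelled mutant HFD. The ratio of Lhb to Fshb, both products of gonadotrophs, ran from 3.81 to 101, so the signals of the 2 beta chains were not in a fixed ratio. The highest ratios (101, 44.4 and 27.4) rest on low Fshb signals of 1.56, 0.197 and 1.29, for which no counting error can be given. Where Fshb was higher the ratio still differed, at 20.7 in control chow replicate 2 and 3.81 in mutant-labelled HFD replicate 1.

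Prl (ENSMUSG00000021342, chromosome 13, 27057570 to 27065205, plus strand, protein coding), the product of lactotrophs and an abundant transcript of the anterior lobe, was listed at 0 in 7 of 12 libraries. It was 0, 22.1 and 0 in control chow, 1.20, 0, 6.02 and 52.5 in mutant chow, 0 and 0 in control HFD, and 0, 12.8 and 0 in the libraries labelled mutant HFD. Where Prl was listed at 0, Cga ranged from 82.0 to 1199 and Tshb from 22.5 to 568. The 4 libraries with more Cga than that (4802, 1586, 1428 and 1326) were the 4 with the most Prl (22.1, 6.02, 12.8 and 52.5 in the same order), and the fifth library with Prl, mutant chow replicate 1 (1.20), had 875 of Cga. The library with the most Prl, mutant chow replicate 4, had 246 of Tshb, inside the range of the libraries with Prl at 0.

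**Figure D1:**
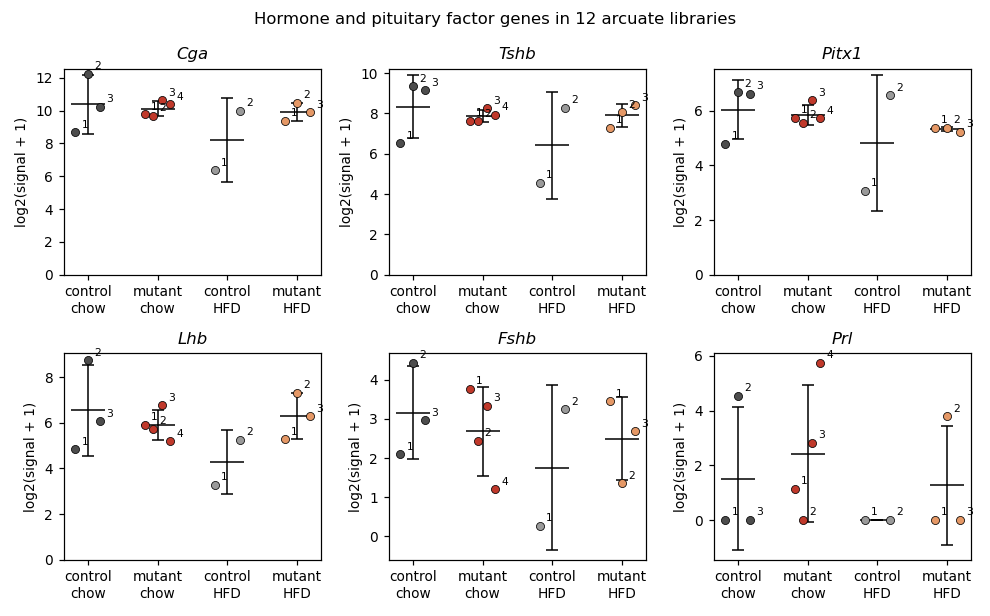
Each panel plots one gene as log2(signal + 1) on the vertical axis for the 4 groups. Numbered points are libraries, horizontal lines group means and bars ± SD. Control chow replicate 2 was highest for 5 of the 6 genes and control HFD replicate 1 lowest for the same 5, while Prl was listed at 0 in 7 libraries.

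The members varied between libraries of one group far more than most genes did. The within-group SD on the log2(signal + 1) scale was 1.33 for Cga, 1.27 for Tshb, 1.29 for Lhb, 1.29 for Fshb, 1.05 for Pitx1 and 2.29 for Prl, against a median of 0.40 over the 15801 genes tested. Cga thus varied more than 98.2% of those genes, and Pitx1, the steadiest of the 6, more than 95.4%. In bulk tissue, fewer cells of a type and less RNA per cell cannot be told apart.

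The question whether pars tuberalis and anterior lobe genes go up and down in the same libraries was addressed by correlating log2(signal + 1) over the 12 libraries. All 15 pairs of the 6 genes were computed, with Benjamini-Hochberg adjustment over the 15. Of the 5 pairs with Prl, which has 7 values tied at 0, 0 passed by both coefficients. Cga and Prl came nearest, with rho = 0.75 (permutation adjusted p = 0.0218, unadjusted p = 0.00783) and r = 0.59 (permutation adjusted p = 0.0523, unadjusted p = 0.0384), and r was 0.62 without control chow replicate 2 and control HFD replicate 1. For Tshb and Prl, rho was 0.30 (permutation adjusted p = 0.361, unadjusted p = 0.337) and r was 0.36 (permutation adjusted p = 0.288, unadjusted p = 0.25). Cga and Tshb had Pearson's r = 0.94 (permutation adjusted p = 0.000675, unadjusted p = 9e-05) and Spearman's rho = 0.80 (permutation adjusted p = 0.0218, unadjusted p = 0.00248). Tshb and Pitx1 had r = 0.93 (permutation adjusted p = 0.000675, unadjusted p = 9e-05) and rho = 0.76 (permutation adjusted p = 0.0218, unadjusted p = 0.00688). Of the 10 pairs without Prl, 5 passed by both coefficients, and these were Cga with Tshb, Lhb and Pitx1, and Tshb with Lhb and Pitx1. Lhb thus went with the pars tuberalis pair, at r = 0.90 with Cga (permutation adjusted p = 0.00127, unadjusted p = 0.00034; rho = 0.76, permutation adjusted p = 0.0218, unadjusted p = 0.00571) and r = 0.81 with Tshb (permutation adjusted p = 0.0066, unadjusted p = 0.0022; rho = 0.73, permutation adjusted p = 0.0218, unadjusted p = 0.00874). As deviations from group means, which removes genotype and diet, r for these 5 pairs was 0.74 to 0.95.

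These relations leaned on the libraries at the ends. Without the 2 libraries farthest from the median of the first gene, r for the 5 pairs was 0.63 to 0.78. When control chow replicate 1, control chow replicate 2 or control HFD replicate 1 was left out, none of the 5 pairs passed by both coefficients, with r from 0.69 to 0.94 and rho from 0.65 to 0.75 (permutation adjusted p for rho from 0.0831 to 0.0838, and for r from 0.00367 to 0.0489). Fshb was less regular. Its r with Cga was 0.66 (permutation adjusted p = 0.0336, unadjusted p = 0.0202) with rho = 0.32 (permutation adjusted p = 0.358, unadjusted p = 0.31), and r was -0.13 without control chow replicate 2 and control HFD replicate 1, so that relation rests on those libraries.

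**Figure D2:**
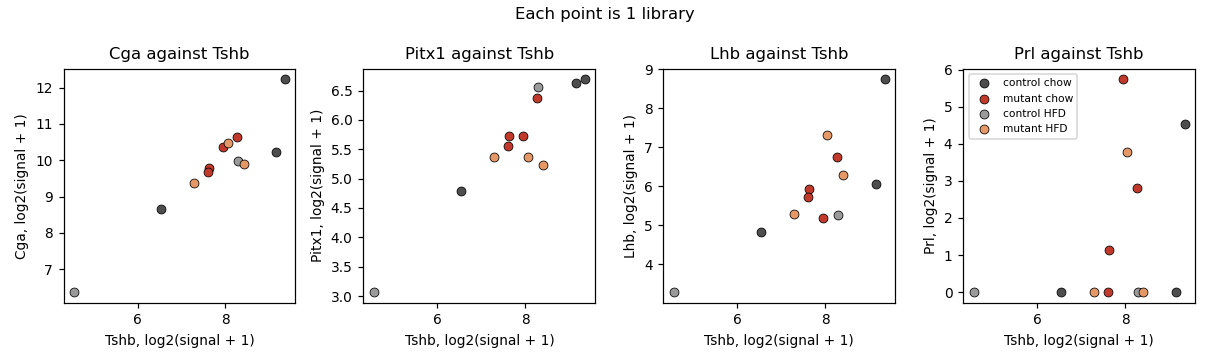
Each panel plots log2(signal + 1) of one gene against that of Tshb, and each point is 1 library coloured by group. Cga, Pitx1 and Lhb went up with Tshb (r = 0.94, 0.93 and 0.81), whereas Prl was listed at 0 over nearly the whole range of Tshb.

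Genes that ranked the libraries most like Tshb were sought among the genes with a mean signal of at least 5, as a description with no test. The 5 with the highest Spearman's rho over 12 libraries were Ces1d (0.95), Srsf6 (0.92), Il10rb (0.92), Gata2 (0.90) and Perp (0.90). Gata2 encodes a transcription factor of pituitary thyrotrophs and gonadotrophs and ranged from 12.4 to 72.4. Cga stood at rank 36 of 12145 genes, Pitx1 and the pituitary homeodomain gene Lhx3 shared rank 94, and Lhb stood at 123, whereas Fshb stood at 1345 and Prl at 2771. For Prl itself the 5 nearest genes were Ppp3cc (rho = 0.87), Rnf138rt1 (0.86), Polrmt (0.85), Ubap1l (0.84) and Trabd (0.83), with Cga at rank 40 and Tshb at 2050 of 12145, and 7 values of Prl are tied at 0 in this order.

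The first comparison asked whether deletion of Esr1 with Nkx2-1-Cre changes these genes on chow. None of the 6 passed an adjusted p of 0.05 (limma, Benjamini-Hochberg), against 0.019% of all genes, and 0 of 6 had an unadjusted p under 0.05, against 4.34%. The groups overlapped for all 6, whereas they did not overlap for 4.51% of all genes, and 5 of 6 fitted changes were below 0, against 47.8%. Several members went up and down together over the libraries, so these counts, here and in the later contrasts, are not of independent genes. The mean of Cga was 2136 ± 2342 for controls (SD, n = 3) against 1150 ± 370 for mutants (SD, n = 4), a log2 fold change of -0.27 ± 0.83 (SE, limma, adjusted p = 0.993) with a 95% interval from 0.24 to 2.88-fold. Tshb was 438 ± 303 (SD, n = 3) and 236 ± 52.6 (SD, n = 4), or -0.48 ± 0.79 on the log2 scale (SE, limma, adjusted p = 0.991), with an interval from 0.219 to 2.34-fold. Such intervals include 2-fold differences in either direction. Without control chow replicate 2 the log2 fold change of Cga was 0.66 and that of Lhb 0.45, in place of -0.27 and -0.65, so the direction depended on 1 library. Without control chow replicate 1 they were -1.12 and -1.51.

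On HFD, 0 of 6 passed between the genotypes, against 0.00633% of all genes, and 0 of 6 had an unadjusted p under 0.05, against 2.21%. None of the 6 fitted changes was below 0 (0 of 6), against 51.5% of all genes. These signs are not independent, since 5 of the members were lowest in the same library, control HFD replicate 1. The mean of Pitx1 was nevertheless lower in the libraries labelled mutant (39.1 ± 2.22, SD, n = 3) than in controls (50.5 ± 61.0, SD, n = 2). Prl was listed at 0 in both controls, so its fitted value, which is counted among the 6, depends on the pseudocount and is no measure of a fold. The mean of Lhb was 23.1 ± 20.3 among controls (SD, n = 2) and 91.0 ± 61.2 among the others (SD, n = 3), and its log2 difference was 2.02 ± 0.96 (SE; limma with Benjamini-Hochberg adjustment, adjusted p = 1, unadjusted p = 0.0556). Its groups did not overlap, at 37.4 against 38.0 for the nearest libraries, and neither did those of 15.7% of all genes. Cga averaged 550 ± 662 (SD, n = 2) against 1017 ± 384 (SD, n = 3). Without control HFD replicate 1, the log2 fold change of Cga was -0.070 in place of 1.74 and that of Tshb was -0.37, with control HFD then a single library assumed to vary like the other groups. Without control HFD replicate 2 they were 3.55 and 3.37.

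HFD against chow in mutants, with the limit on the libraries labelled mutant HFD, gave 0 of 6 past the adjusted threshold (0.019% of all genes) and 0 of 6 with an unadjusted p under 0.05 (5.37%). Of the 6 fitted changes, 4 were below 0, against 53.1% of all genes. For Tshb the means were 236 ± 52.6 (SD, n = 4) with chow and 253 ± 92.9 (SD, n = 3) with HFD, and limma gave 0.054 ± 0.79 (log2, SE) with an interval from 0.318 to 3.39-fold and a Benjamini-Hochberg adjusted p = 0.996. Pitx1 was 57.9 ± 16.1 (SD, n = 4) and 39.1 ± 2.22 (SD, n = 3), without overlap between the groups, a property of 7.99% of all genes. Its log2 fold change was -0.52 ± 0.66 (SE, limma, adjusted p = 0.953).

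In controls, HFD against chow gave 0 of 6 past the adjusted threshold, as it did for all genes (0%), and 2 of 6 lower at an unadjusted p under 0.05, against 2.1% of all genes lower and 3.54% in either direction. All 6 fitted changes were below 0 (50.7% of all genes). Lhb had a log2 difference of -2.28 with SE 0.96 (unadjusted p = 0.034, and 0.998 after the Benjamini-Hochberg adjustment of limma), and Cga one of -2.19 with SE 0.99 (limma, adjusted p = 0.998, unadjusted p = 0.0456). The groups overlapped for all 6 members, whereas 14.1% of all genes showed no overlap. Control HFD holds only 2 libraries, and without control HFD replicate 1 the changes were -1.29 for Lhb and -0.38 for Cga, while Pitx1 turned from -1.22 to 0.53. Without control chow replicate 2, Cga was -1.27 and Lhb -1.18. Leaving out control HFD replicate 2 instead gave -4.00 for Cga, -3.79 for Tshb and -3.26 for Lhb, and leaving out control chow replicate 1 gave -3.05, -2.83 and -3.13. The members lower at an unadjusted p under 0.05 then numbered 5 and 4 of 6, against 0 without control chow replicate 2 or control HFD replicate 1 and 1 without any one of the 8 other libraries. The genotype by diet interaction, which tests whether the genotype effect differs between the diets, passed for 0 of 6 members (0% of all genes), and 0 of 6 had an unadjusted p under 0.05 (3.44%). None of the 6 interaction terms was below 0 (0 of 6), against 52.7% of all genes. That of Lhb was the largest of the 6, at 2.67 with a 95% interval from -0.036 to 5.38 (limma, Benjamini-Hochberg adjusted p = 0.999, unadjusted p = 0.0527).

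**Figure D3:**
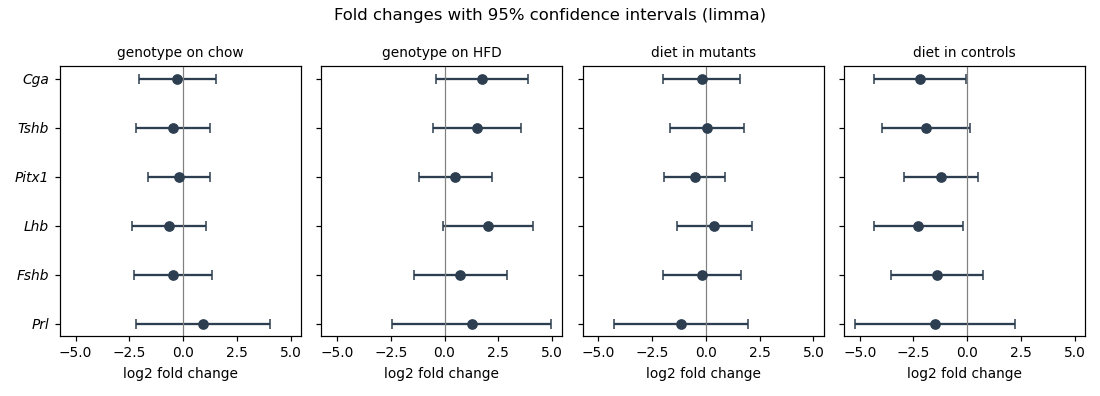
Points are log2 fold changes from limma and bars 95% confidence intervals, for 6 genes in 4 contrasts (mutant minus control, or HFD minus chow). The interval crosses 0 for every gene except Cga and Lhb for diet in controls, and neither passed the adjusted threshold.

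By mean signal, Cga ran from control chow (2136) through mutant chow (1150), then the mutant-labelled HFD libraries (1017), to control HFD (550). Tshb ran from control chow (438) through the libraries labelled mutant HFD (253) and mutant chow (236) to control HFD (167). In both orders each group overlapped its neighbour, so no step exceeded the spread between libraries.

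Other genes of the same tissue were taken from lists. All 6 further genes associated with the pars tuberalis were detected, and 0 of 6 passed the adjusted threshold of limma in any contrast. None of them had an unadjusted p under 0.05, against 2.21% to 5.37% of all genes by contrast. Mtnr1a, which encodes the melatonin receptor of the pars tuberalis, was low, with a median of 2.23 and a highest value of 15.2 in control chow replicate 3. Lhx3 was 2.82 in control HFD replicate 1 and 2.71 in control chow replicate 1, against 10.3 to 42.6 in the other libraries. Of 16 pituitary factors and receptors for releasing hormones, 12 had values, and 0 of 12 passed the adjusted threshold of limma in any contrast. Of these 12, 0 to 2 per contrast had an unadjusted p under 0.05, against 2.21% to 5.37% of all genes.

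Downstream of TSH, 8 genes of TSH response and thyroid hormone handling were examined, and 0 of 8 passed the adjusted threshold of limma in any contrast. Of these 8, 0 to 2 per contrast had an unadjusted p under 0.05, against 2.21% to 5.37% of all genes. Tshr, the TSH receptor, ranged only from 6.35 to 20.1. Dio2, which encodes the deiodinase that activates thyroid hormone in tanycytes, ran from 19.5 to 43.2 across control chow and had a mean of 14.3 ± 0.444 (SD, n = 2) for control HFD, and its log2 difference was -1.11 ± 0.46 (SE; limma, adjusted p = 0.998, unadjusted p = 0.0315). Across mutants it ran from 23.6 to 36.3 with chow and from 8.13 to 31.3 with HFD, with a difference of -0.86 ± 0.38 (SE; limma, adjusted p = 0.916, unadjusted p = 0.044). Prlr, the prolactin receptor, ranged from 8.67 to 18.8 and passed in no contrast.

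The libraries that stood apart for the hormone genes also stood apart for some other tissue markers, but not for all. By mean log2(signal + 1), the 6 other pars tuberalis genes were lowest in control chow replicate 1 (3.36) and highest in control chow replicate 3 (5.55). For them control HFD replicate 1 was at 3.54 and control chow replicate 2 at 4.74. The 12 pituitary factors and receptors were lowest in control HFD replicate 1 (2.57). They were highest in mutant chow replicate 3 (3.79, against 3.31 in control chow replicate 2). In control HFD replicate 1 the summed signal of 9 arcuate neuron genes was 2179, the lowest of all libraries, against 3690 to 8313 in the others. The summed signal of 7 tanycyte genes was 367 there, between the 331 of mutant-labelled HFD replicate 1, the lowest, and the 697 of mutant chow replicate 3, the highest. Among these genes, Rax (23.6 against 41.1 to 146) and Crym (21.4 against 23.2 to 58.7) were nevertheless lowest in control HFD replicate 1. The same library held 2112 of Ttr, a choroid plexus gene, against at most 19.2 elsewhere. Of the 4 choroid plexus genes with values, Kl was also highest there (19.2, against at most 8.13 elsewhere). Folr1 (14.7) was highest in control chow replicate 2 (47.3), and Clic6 (29.2) in mutant-labelled HFD replicate 3 (33.1). Control chow replicate 2 had the highest summed signal of 7 leptomeningeal genes, at 332 against 90.9 to 251. Among these genes it was highest only for Igf2 (129.8) and Dcn (168.8, against 168.5 in control chow replicate 3). The rest were highest in other libraries. The sums of control chow replicate 2 for the tanycyte genes (690) and the arcuate genes (7991) were below those of mutant chow replicate 3 (697 and 8313). By mean log2(signal + 1), control chow replicate 2 was the highest library for the arcuate genes (8.80, against 8.79 in mutant chow replicate 3). For the tanycyte genes it stayed below that library (6.12 against 6.16). All 9 arcuate and all 7 tanycyte genes had values, and none of them was at 0 in any library. Whether these differences in tissue account for the levels of the hormone genes was not tested.

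**Figure D4:**
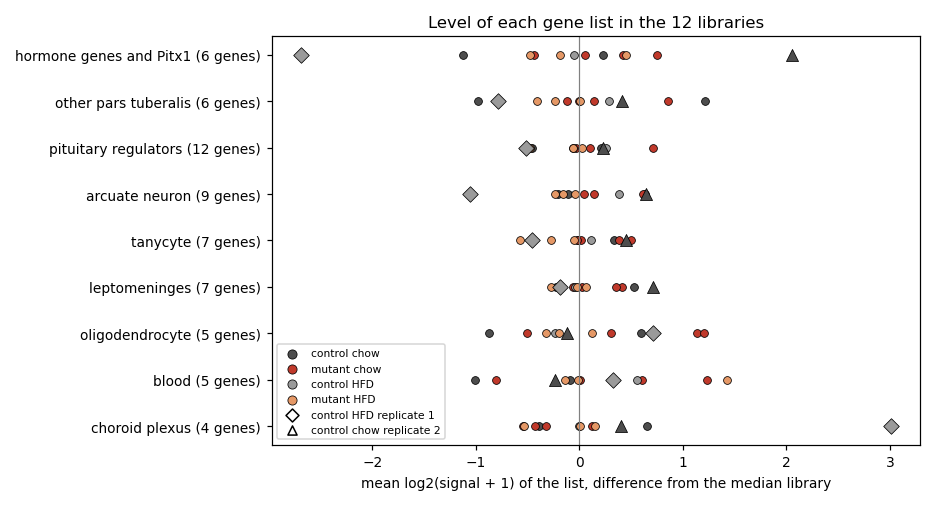
Each line is a gene list and each point a library, placed by its mean log2(signal + 1) relative to the median library. Control HFD replicate 1 (diamond) was lowest for the hormone genes and for arcuate neuron genes and highest for choroid plexus genes. In that last list Ttr and Kl were highest in this library, but Folr1 and Clic6 were not. Control chow replicate 2 (triangle) was highest for the hormone genes, the arcuate neuron genes and the leptomeningeal genes. The other pars tuberalis genes were lowest in control chow replicate 1 and highest in control chow replicate 3. The pituitary regulators were lowest in control HFD replicate 1 and highest in mutant chow replicate 3.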

How the data were processed

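RNA from microdissected ARC of 12 libraries was sequenced by the authors, quantified per gene with Kallisto against mm10 transcripts and tested with Sleuth. Versions and the annotation release are not given in the sources used here. The deposited values are a signal per gene, read here as an abundance normalised by the authors for transcript length and depth, though the scaling was not stated. Every column was mapped by name and 0 were left unmapped. Symbols and positions came from GENCODE M21 (GRCm38), with 16633 of 16640 genes matched. No pair of libraries was identical.

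Values were transformed as log2(signal + 1), which understates changes of low genes. Genes with a signal of at least 1 in at least 2 libraries (15801) were fitted with limma 3.58.1 in R 4.3.3 with a mean-variance trend and 1 mean per group, sharing 1 spread. Tests were two-sided, adjusted over all genes by Benjamini-Hochberg at 0.05. The fit was tested on simulated data. Correlations used 100000 permutations (numpy 2.4.6). The members and gene lists were chosen with earlier results of these data known. Genes named were all members with values, marker genes of the lists, Esr1 and the 5 genes most like Tshb or Prl. Others were named after their values were seen (Lhx3, Ttr, Kl, Folr1, Clic6, Crym, Igf2, Dcn). Alternatives were quantile normalisation, columns rescaled to a sum of 1000000, no filter on low values, a minimum mean signal of 5, 0.1 as pseudocount, no trend, only the groups compared, array weights and leaving out each library. Leaving out control chow replicate 2 and control HFD replicate 1 together was added after the data were seen. Some genes of the lists are not reported here.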

Additional observations from a re-analysis of the deposited data

Results flagged for a closer look

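Mutant chow, with 4 libraries, was the one group large enough to check for a library far from the others. The 6 genes were checked on the untransformed signal, not on log2(signal + 1), where a high value lies closer to the rest. About 1 in 20 genes would stand out by chance if signals were normally distributed, which was not tested. The Prl signal of mutant chow replicate 4 (52.5) lay far above the 0, 1.20 and 6.02 of its group, and its distance to the nearest of them made up 0.885 of the whole spread. In the same library Lhb (35.4) and Fshb (1.29) were the lowest of the group. Pitx1 in mutant chow replicate 3 was 81.8, against 46.2 to 52.1, or 0.832 of the spread. That library also had the highest Cga (1586), Tshb (307) and Lhb (108) of its group and the most genes listed at 0 (1768).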

How the results depend on the processing

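No member passed the adjusted threshold under the 12 alternatives that left out 1 library or the 9 others (622 values, smallest limma adjusted p = 0.446), though up to 5 members reached an unadjusted p under 0.05. Of the 622 values, 570 kept their direction and 52 changed sign or went to 0, of which 31 with 1 library left out, and the cause was not tested. Under array weights the log2 difference of Cga became 0.029 (genotype on chow) and 0.062 (diet in mutants). With control chow replicate 2 and control HFD replicate 1 both left out, chosen after seeing the data, genotype on chow was 0.66 for Cga, 0.024 for Tshb, 0.45 for Lhb, 0.16 for Fshb and 0.14 for Pitx1, and genotype on HFD was -0.070, -0.37, -0.75 and -1.24 for Cga, Tshb, Fshb and Pitx1. Diet in controls was then 0.54, 0.44, 0, 0.72 and 0.86 for Cga, Tshb, Prl, Fshb and Pitx1, and the interaction -0.73, -0.39, -1.16, -0.91 and -1.38. With both left out, members not named for a contrast kept their direction. With 1 library left out, genotype on chow ran from -1.12 to 0.66 for Cga, -1.39 to 0.024 for Tshb, -0.19 to 2.42 for Prl, -1.51 to 0.45 for Lhb, -1.01 to 0.16 for Fshb and -0.81 to 0.14 for Pitx1. Genotype on HFD ran from -0.070 to 3.55 for Cga, -0.37 to 3.37 for Tshb, 0 to 1.90 for Prl (fitted against controls at 0, so no fold), -0.75 to 2.24 for Fshb and -1.24 to 2.26 for Pitx1. For Lhb it stayed above 0, from 1.03 to 3.01. Diet in mutants ran from -0.47 to 0.080 for Cga, -0.19 to 0.37 for Tshb, -0.12 to 0.90 for Lhb and -0.68 to 0.39 for Fshb. It stayed below 0 for Prl (-2.42 to -0.052) and Pitx1 (-0.62 to -0.35). Diet in controls ran from -4.00 to -0.38 for Cga, -3.79 to -0.061 for Tshb, -3.26 to -1.18 for Lhb, -2.27 to 0 for Prl, -2.90 to 0.087 for Fshb and -2.97 to 0.53 for Pitx1, and the interaction from -1.16 to 1.46 for Prl, -0.27 to 2.72 for Fshb and -1.05 to 2.44 for Pitx1. The interaction stayed above 0 for Cga (0.19 to 3.81), Tshb (0.11 to 3.85) and Lhb (1.57 to 3.66). The number of gene pairs that passed by both coefficients was 5 with all libraries, 0 to 6 with 1 left out, 5 with a pseudocount of 0.1 and 4 with rescaled columns. DESeq2 was not run because the values are not counts, and the interaction has no fit with only the groups compared. No paired analysis was possible because nothing in the labels ties a replicate of one group to a replicate of another. Depth is unknown, so values at 0 have no detection limit.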

Other observations

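Among the hypothalamic genes that drive or restrain the pituitary, 0 of 6 releasing and inhibiting factors passed the adjusted threshold of limma in any contrast. Of these 6, 0 to 1 per contrast had an unadjusted p under 0.05, against 2.21% to 5.37% of all genes. Gnrh1, the gene for gonadotrophin-releasing hormone, was singled out after its values were seen. It ran from 61.7 to 108 across control chow and from 27.7 to 126 across mutant chow. With HFD it ran from 30.9 to 40.6 across controls and from 55.8 to 174 across the libraries labelled mutant, without overlap. In that comparison 15.7% of all genes did not overlap either. The genotype by diet interaction of Gnrh1 was 2.32 ± 0.74 (log2, SE; limma, adjusted p = 0.999, unadjusted p = 0.00848).

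Trhr, the gene for a receptor of thyrotrophin-releasing hormone, was also singled out after its values were seen. Control chow libraries had 5.74, 3.89 and 4.41, all below the 9.61, 9.71, 15.7 and 9.14 of mutant chow. In that comparison 4.51% of all genes did not overlap. The log2 difference of Trhr was 1.06 ± 0.27 (SE; limma, adjusted p = 0.865, unadjusted p = 0.00195), short of the adjusted threshold. The libraries labelled mutant HFD had 6.54, 6.41 and 5.56, which differed from mutant chow by -0.72 ± 0.27 (log2, SE; limma, adjusted p = 0.841, unadjusted p = 0.0211).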
